A study of Mus musculus with 6 samples.

Results

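The keratin genes of the mouse were followed across the liver, the ovary and the uterus, and between mice given BHPF, a fluorene bisphenol used in plastics in place of bisphenol A, and control mice. Probes were taken as keratin probes when the symbol of their transcript began with Krt followed by a digit, which leaves out the keratin-associated proteins of hair. The array carries 64 such probes for 53 genes among 55681 probes other than controls, of which 26762 have a gene symbol. Of the 53 genes 40 are described here, by the 47 probes that rose well above background on 1 array or more.

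The samples were RNA of immature female CD-1 mice, an outbred stock, labelled as 24 days old. Control mice received peanut oil, and treated mice received BHPF at 50 mg/kg body weight per day, both by oral gavage for 3 days. The 6 groups were the control liver, ovary and uterus and the BHPF liver, ovary and uterus, and each had 1 one-colour Agilent array made from RNA pooled from 3 mice. Variation among animals could not be read from such pools, and a difference between BHPF and control within a tissue had no replicate check. Whole tissues were used, so more cells of an epithelium and more RNA per cell cannot be told apart. The level of a probe is its log2 intensity minus the 75th percentile of its array, and the log2 ratio is the BHPF level minus the control level within a tissue. Levels were compared for the same probe only.

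Keratins are the intermediate filament proteins of epithelia and assemble as pairs of a type I and a type II chain. Simple epithelia, such as those of liver, ducts and the uterine lining, carry Krt8 with Krt18, often with Krt7, Krt19, Krt20 or Krt23. Stratified epithelia carry Krt5 with Krt14 in their basal cells and switch to Krt1 with Krt10 in epidermis, or to Krt4 with Krt13 in mucosa, as the cells move up. Krt6, Krt16 and Krt17 are known as keratins of wounded or rapidly growing epithelium, and a further set builds hair and nail. The genes lie in 2 clusters. The array covers 27 of them on chromosome 11, which holds the type I genes other than Krt18, and 26 on chromosome 15, which holds the type II genes and Krt18.

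The 5' flanks of 4 members are shown because the results turn on them. Krt8 and Krt18 are neighbours on chromosome 15 and both had their lowest levels in the ovary, and Krt79 in the liver and Krt84 in the uterus differed most with BHPF among probes well above background on both arrays. The sequences are from RefSeq on GRCm38.p6 and run from 250 bases before to 50 bases after the annotated start, 5' to 3' on the gene's strand. Capitals mark matches, on either strand, to 6 motifs. The TATA box was searched as TATAAA, and the half-site of the oestrogen response element as AGGTCA. The motif of GATA factors was searched as AGATAA, that of AP-1 as TGANTCA, and the GC box, bound by Sp factors, as GGGCGG. The grainyhead-like motif was searched as AACCGGTT.
Krt8, chr15:102004293-102004592, minus strand: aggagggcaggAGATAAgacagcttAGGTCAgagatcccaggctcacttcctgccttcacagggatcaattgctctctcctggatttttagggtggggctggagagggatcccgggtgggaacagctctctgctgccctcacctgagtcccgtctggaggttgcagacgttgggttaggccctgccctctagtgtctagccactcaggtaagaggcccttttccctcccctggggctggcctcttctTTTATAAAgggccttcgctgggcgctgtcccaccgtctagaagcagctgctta
Krt18, chr15:102027966-102028265, plus strand: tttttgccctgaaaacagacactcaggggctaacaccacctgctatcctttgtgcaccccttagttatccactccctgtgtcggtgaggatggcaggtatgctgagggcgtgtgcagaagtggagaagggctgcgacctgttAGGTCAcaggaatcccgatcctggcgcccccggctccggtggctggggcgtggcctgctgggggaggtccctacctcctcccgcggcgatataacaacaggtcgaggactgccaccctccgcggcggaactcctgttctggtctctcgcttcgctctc
Krt79, chr15:101940275-101940574, minus strand: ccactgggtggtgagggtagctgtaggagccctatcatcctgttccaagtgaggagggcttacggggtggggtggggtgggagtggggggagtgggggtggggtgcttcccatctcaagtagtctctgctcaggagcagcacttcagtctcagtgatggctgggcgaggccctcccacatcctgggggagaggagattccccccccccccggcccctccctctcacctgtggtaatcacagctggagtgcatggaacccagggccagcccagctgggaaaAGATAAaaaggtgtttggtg
Krt84, chr15:101532771-101533070, minus strand: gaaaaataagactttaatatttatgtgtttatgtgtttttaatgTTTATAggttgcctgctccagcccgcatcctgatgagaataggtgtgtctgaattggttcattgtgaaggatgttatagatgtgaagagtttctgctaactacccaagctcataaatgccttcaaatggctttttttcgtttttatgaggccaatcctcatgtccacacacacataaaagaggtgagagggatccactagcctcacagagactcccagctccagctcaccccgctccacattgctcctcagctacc
AGGTCA was found in the flanks of both Krt8 and Krt18, 225 and 108 bases before the start, and in neither that of Krt79 nor that of Krt84. The flank of Krt8 also held AGATAA, and a pair of overlapping TATAAA matches on opposite strands lay across its annotated start. The Krt79 flank held AGATAA only, 31 bases after the start, and the Krt84 flank held TATAAA only, on the strand opposite to the gene. Over the 37 flanks of 36 keratin genes on the array that were in the table, TATAAA was found in 19, against 13.6% of 32851 flanks of all genes, and the oestrogen half-site and the GATA motif in 10 each, against 16.3% and 11.2%. The AP-1 motif and the GC box were each found in 2 of the 37, against 7.81% and 35.7%, and the grainyhead-like motif in 0, against 0.146%. A match is a description of letters and not a binding site.

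The depth of the arrays limited what could be seen of weak keratins. Between 61.3% and 74.5% of all probes were well above background on an array, and the lowest level so called lay between -6.33 on the control ovary array and -4.91 on the BHPF liver array. All 6 simple keratins were well above background in each tissue, and 5 of the 6 on all 6 arrays. Of the 28 stratified keratin probes 23 were members, for 18 of 21 genes, and 12 probes were well above background on all 6 arrays. Of the 26 hair keratin probes 15 were members, for 14 of 23 genes, and 8 were so on all 6 arrays. Krt6a, Krt9, Krt76, Krt90 and 9 hair keratin genes were not well above background on any array. The SD of a log2 ratio that spots of 1 probe give, with no spread between animals in it, was 0.124 to 0.134 at levels above -2 and 0.209 to 0.257 below -4.

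The labelled tissues were checked by marker lists. The summed linear level of the hepatocyte markers was, control before BHPF, 758 and 739 in the liver, 12.7 and 14.9 in the ovary, and 5.52 and 71.3 in the uterus. The BHPF uterus array thus carried more hepatocyte signal than the control uterus array, and 20 of 21 hepatocyte probes were at least 2-fold higher there, with log2 ratios of 5.49 for Apoa1, 5.23 for Apoh, 5.13 for Serpina3k and 5.03 for Fgg. Of 9 cholangiocyte probes 1 was higher there, that of the secreted phosphoprotein Spp1, at 1.36 on the log2 scale. That signal stands beside every uterus ratio below, and beside every tissue difference and test that uses the BHPF uterus array. Its part in them was not tested. The table of log2 values that the authors deposited heads these uterus arrays the other way round, and by its headings every uterus ratio below changes sign. With the labels used here the uterus log2 ratio of Sprr2f was -1.33, and 729 probes were at least 2-fold higher and 300 lower. By the table's headings Sprr2f turns positive, with 301 probes higher and 729 lower. The paper reports lower Sprr2f in the uterus after BHPF, and more genes raised than lowered. The labels used here give both of these directions, and the table's headings give neither. The summed level of the uterine stroma and muscle markers was 118 on both uterus arrays and at most 49.9 on the others, and that of the granulosa markers was 90.7 and 94.3 on the ovary arrays and at most 46.0 on the others. The granulosa sum includes a Foxl2 probe that was bright in every tissue, with log2 levels of 5.12 and 5.19 in the liver, 4.31 and 4.35 in the ovary, and 4.32 and 4.60 in the uterus.

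The 6 simple keratins differed in level between tissues, and the shares of all probes that did so are given below. Krt8 and Krt18, the basic pair of simple epithelia and the only keratins of normal hepatocytes, were bright in liver and uterus and lower in ovary. Here and below levels are given for control before BHPF. The level of Krt8 was 3.35 and 3.51 in the liver, 0.93 and 0.99 in the ovary, and 3.23 and 3.11 in the uterus. Krt18 had a level of 4.12 and 4.13 in the liver, 1.22 and 1.16 in the ovary, and 3.67 and 3.80 in the uterus. In both, the ovary arrays lay below all 4 others, by 5.36-fold for Krt8 and 7.46-fold for Krt18 when the control ovary was set against the control liver.

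Krt19 and Krt7, keratins of ducts and glandular linings, were high in the uterus. The level of Krt19 was -1.43 and -1.05 in the liver, 0.59 and 0.43 in the ovary, and 3.54 and 3.78 in the uterus. That of Krt7 was -1.40 and -1.11, -1.21 and -1.30, and 2.55 and 2.38 in the same order. The groups of a tissue did not overlap with those of another tissue for Krt19, whereas the liver and ovary arrays overlapped for Krt7. On the control arrays the uterus exceeded the liver by 31.3-fold for Krt19 and 15.4-fold for Krt7, and the ovary by 7.72-fold and 13.5-fold.

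Krt20 and Krt23 ran in opposite directions between ovary and uterus. Krt20, best known from intestinal epithelium and urothelium, had a level of -4.59 on the control liver array, was not well above background on the BHPF liver array, and had levels of 0.90 and 0.78 in the ovary and -2.31 and -1.33 in the uterus. Krt23, a type I keratin, had levels of -0.96 and -1.54 in the liver, -4.70 and -4.57 in the ovary, and 0.24 and 0.66 in the uterus. Krt20 was thus the simple keratin whose highest arrays were those of the ovary, 9.22-fold above the uterus on the control arrays, while Krt23 was 30.6-fold higher in the uterus than in the ovary.

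**Figure D1:**
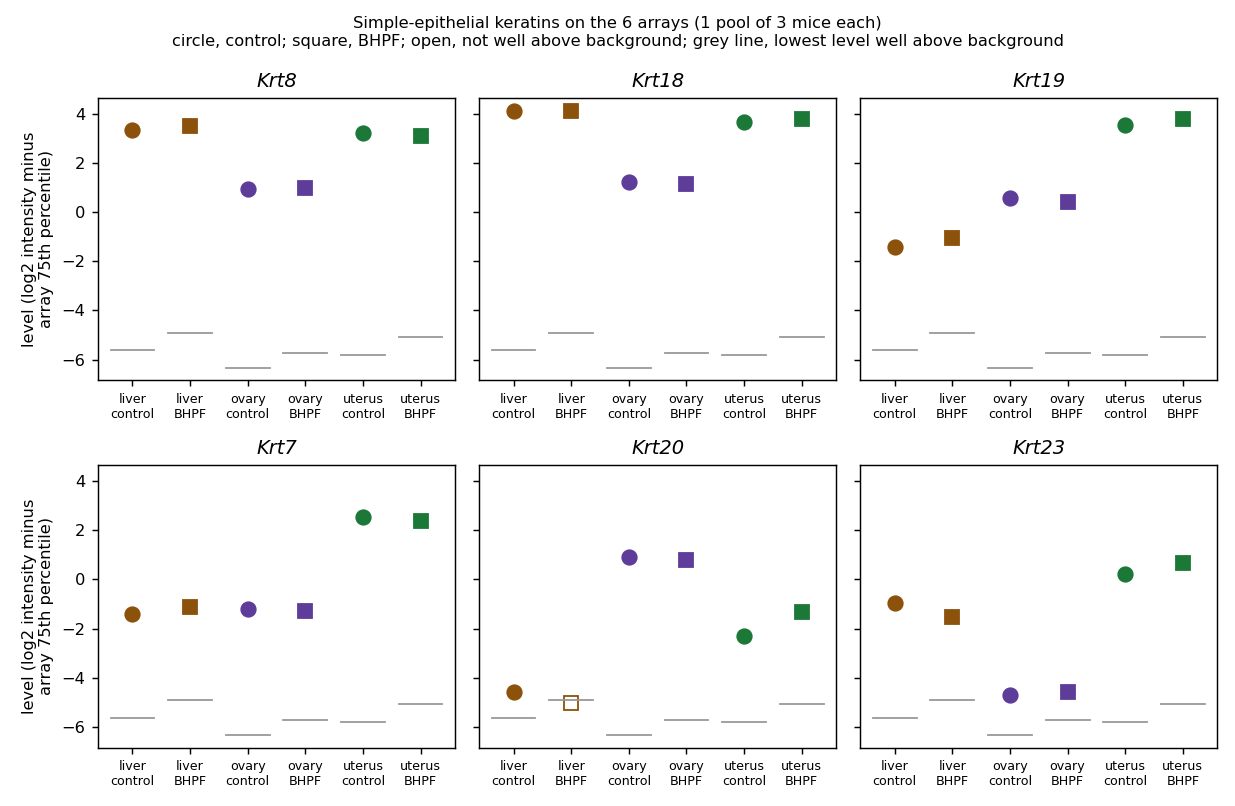
Level (log2 intensity minus the 75th percentile of the array) of the 6 simple keratins on the 6 arrays, with circles for control, squares for BHPF, open symbols for probes not well above background and a grey line at the lowest level well above background. Control and BHPF symbols of a tissue are farthest apart for Krt20 in the uterus, at -2.31 and -1.33, and the ovary symbols are the lowest for Krt8, Krt18 and Krt23 and the highest for Krt20.

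The differences between tissues were tested by a limma fit over the 6 arrays with tissue and treatment as terms. Each tissue has 2 arrays, 1 control and 1 BHPF, and the p values are adjusted over 43892 probes by Benjamini-Hochberg. The error of the fit comes from how far tissue differences vary between control and BHPF arrays, pooled in part over all probes. It does not measure the spread between animals or between pools of 1 treatment. This limma test was added after the values had been seen. The tissues differ in most of what the array measures, so that among all probes well above background on the 4 arrays of a pair 61.8% passed between uterus and liver, 33.5% between uterus and ovary, and 65.6% between ovary and liver. Of the keratin probes counted in the same way 15 of 26, 20 of 33 and 17 of 27 passed, and of the simple keratins 4 of 5, 6 of 6 and 4 of 5. Krt8 was the exception between uterus and liver (-0.26, SE 0.10, adjusted p = 0.0727, limma), with 2 arrays a tissue, and Krt7 between ovary and liver (-0.0014, SE 0.16, adjusted p = 0.995, limma). Krt18 was lower in the uterus than in the liver by a small amount (-0.39, SE 0.09, adjusted p = 0.00979, limma). For Krt19 the uterus exceeded the liver by 4.90 (SE 0.16, adjusted p = 8.96e-06, limma) and the ovary by 3.15 (SE 0.16, adjusted p = 9.06e-05, limma) on the log2 scale. The order of the levels was uterus, ovary, liver for Krt19 and uterus, liver, ovary for Krt23, each step passing the test, and ovary, uterus, liver for Krt20, again with each step passing although 1 liver array of that probe was not well above background.

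A group of stratified keratins was also brightest in the uterus. Krt42, a type I keratin of mice, Krt24, Krt13 of mucosal epithelium and Krt15 of basal cells were 4.10-fold to 13.7-fold higher there than in the liver on the control arrays. The level of Krt42 was -0.49 and -0.33 in the liver, 0.84 and 0.77 in the ovary, and 3.24 and 3.45 in the uterus. Krt24 had a level of -3.48 and -3.09 in the liver, -3.45 and -3.02 in the ovary, and -0.07 and 0.03 in the uterus. For both genes the uterus arrays lay above all others, and liver and ovary overlapped for Krt24.

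Krt13 had, by its brighter probe, a level of 0.09 and 0.37 in the liver, -0.42 and -0.70 in the ovary, and 2.13 and 2.33 in the uterus. Its second probe was well above background in the uterus only, at -2.12 and -2.24, and gave at least 11.3-fold more than the liver and at least 17.8-fold more than the ovary on the control arrays. Krt15 had levels of -5.09 on the control liver array, -4.82 and -5.16 in the ovary, and -1.31 and -1.11 in the uterus, and was not well above background on the BHPF liver array. Krt17, of growing and wounded epithelium, was well above background on the uterus arrays only, at -2.82 and -2.18, and exceeded the ovary by at least 8.87-fold on the control arrays. Its spot on the control liver array was an outlier and was left out, so that Krt17 is the keratin probe that the fit could not include. In the fit the uterus exceeded the liver by 3.75 for Krt42 (SE 0.12, adjusted p = 8.90e-06, limma), by 3.26 for Krt24 (SE 0.18, adjusted p = 3.22e-05, limma) and by 1.997 for the brighter probe of Krt13 (SE 0.17, adjusted p = 0.000171, limma).

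The pairs that define stratified epithelium were weak or flat. Krt14, the type I keratin of basal cells, had levels of -2.73 and -2.64 in the liver, -2.86 and -2.68 in the ovary and -2.47 and -2.20 in the uterus, and none of its tissue differences passed the limma test, with adjusted p of 0.1405 for uterus and liver, 0.112 for uterus and ovary and 0.695 for ovary and liver. Krt5, its partner, was near background, with 1 probe well above it on the control uterus array only, at -4.94, and the other on the control ovary and control uterus arrays, at -5.18 and -4.73. Krt4, the partner of Krt13 in mucosa, had levels of -3.59 and -3.16 in the liver, -3.90 and -4.90 in the ovary, and -3.22 and -3.20 in the uterus. Krt4 therefore did not share the high uterus level of Krt13.

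Krt1 and Krt10, the epidermal pair, were seen in part. Krt1 was not well above background in the liver and had levels of -3.84 and -3.81 in the ovary and -3.47 and -3.61 in the uterus. Krt10 had by its brighter probe a level of 0.40 and 0.43 in the liver, 0.59 and 0.44 in the ovary and 0.88 and 0.86 in the uterus, a range of 0.48 over the arrays. Its dimmer probe had -3.63 and -2.84, -2.51 and -2.42, and -1.57 and -1.42, a range of 2.21, and the uterus exceeded the liver by 1.74 in the fit (SE 0.23, adjusted p = 0.00107, limma) against 0.46 for the brighter probe (SE 0.12, adjusted p = 0.0183, limma).

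Krt79, known from the openings of hair follicles, had levels of -1.93 and -0.72 in the liver, 1.11 and 1.05 in the ovary and -0.43 and -0.52 in the uterus, so that the ovary arrays lay above all others. Krt12 is known from the corneal epithelium. Its brighter probe was not well above background in the liver and had levels of -1.47 and -1.65 in the ovary and -0.20 and 0.01 in the uterus, while its dimmer probe was well above background in the ovary only, at -4.64 and -4.88. The 2 probes of Krt12 thus put ovary and uterus in opposite order. Krt16, the stress keratin, was well above background in the liver only, at -3.08 and -3.38, which is at least 6.62-fold above the uterus and at least 9.54-fold above the ovary on the control arrays.

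The other stratified keratins seen on all 6 arrays were weak. The brighter probe of Krt2 had levels of -2.15 and -1.77 in the liver, -2.41 and -2.26 in the ovary and -2.37 and -2.20 in the uterus. Krt80 had -3.17 and -2.80, -3.69 and -3.58, and -3.80 and -3.60, and Krt77 had -3.68 and -3.60, -5.12 and -4.87, and -4.47 and -4.44, in the same order of tissues. The brighter probe of Krt6b, a wound keratin whose sequence is close to that of Krt6a, had -3.17 and -2.78, -4.47 and -4.73, and -3.39 and -3.26. Krt6b and Krt77 were lower in the ovary than in the liver, by 1.63 (SE 0.25, adjusted p = 0.00172, limma) and by 1.35 (SE 0.25, adjusted p = 0.00415, limma), and the brighter Krt2 probe did not pass for any pair of tissues. Of the stratified probes well above background on all 4 arrays of a pair, 7 of 12 passed between uterus and liver, 5 of them higher in the uterus, 8 of 15 between uterus and ovary, 7 of them higher in the uterus, and 8 of 13 between ovary and liver, 3 of them higher in the ovary. These shares stand against 61.8%, 33.5% and 65.6% of all probes.

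**Figure D2:**
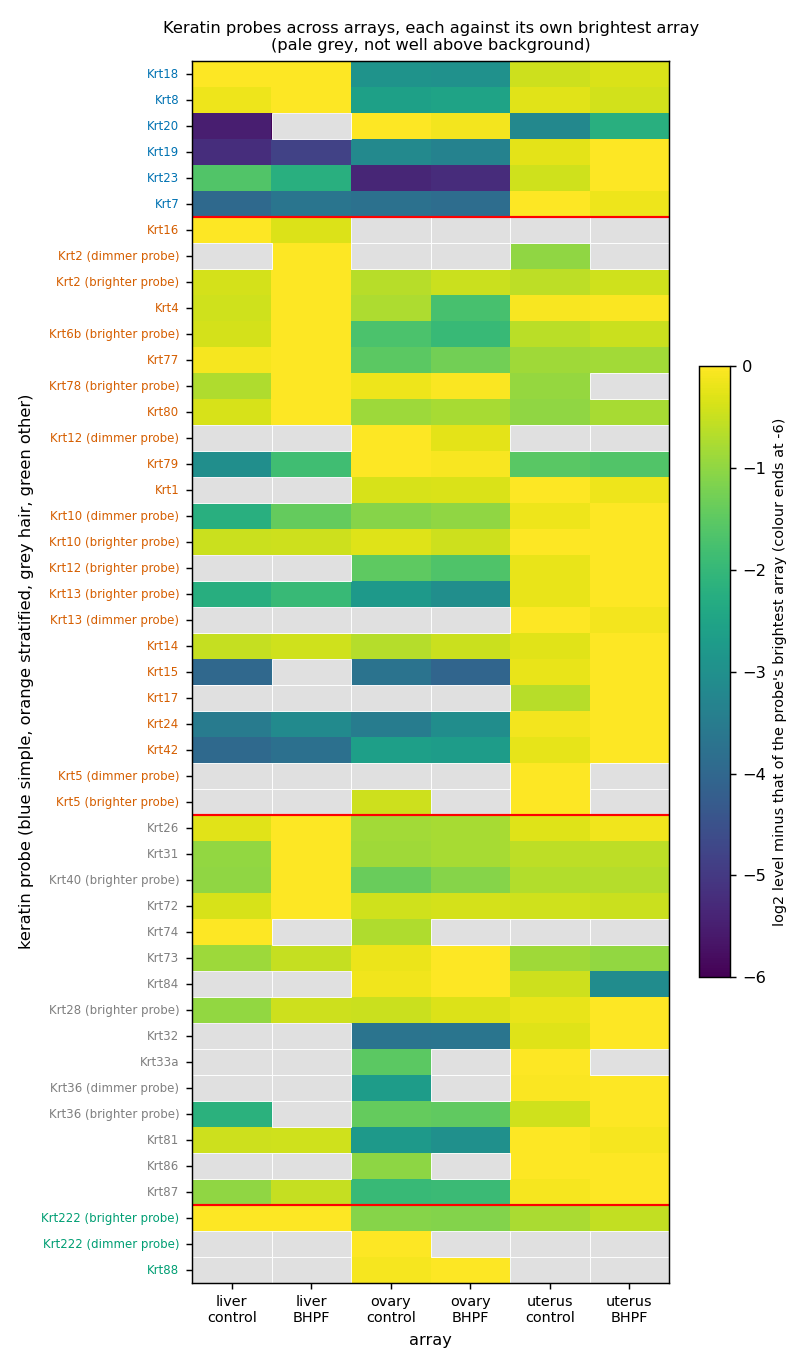
Each row is 1 of the 47 keratin probes and each column an array, coloured by the log2 level minus that on the probe's own brightest array, with pale grey where the probe was not well above background. The simple keratins and Krt13, Krt15, Krt24 and Krt42 change more by tissue than between the control and BHPF columns of a tissue. Among them those columns differ most for Krt20 in the uterus, and Krt15 and Krt20 are pale grey in the BHPF liver column only. Krt84 is the row in which the uterus columns differ most.

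Some hair keratins also differed between tissues. Krt32, a type I hair keratin, was not well above background in the liver and had levels of -3.84 and -3.82 in the ovary and -0.44 and -0.15 in the uterus. Krt81, a type II hair keratin with close relatives in the cluster, had levels of 2.09 and 2.12 in the liver, -0.21 and -0.44 in the ovary and 2.55 and 2.46 in the uterus. The ovary arrays were thus the lowest of Krt81, as they were of Krt8 and Krt18. Krt87, which lies near it in the cluster, had levels of -2.78 and -2.31, -3.75 and -3.70, and -1.86 and -1.79. The 8 hair keratin probes well above background on all 6 arrays ranged over the arrays by 0.48 for Krt72 to 2.99 for Krt81. By the limma test 3 of 8 hair probes passed between uterus and liver, 5 of 11 between uterus and ovary, and 4 of 8 between ovary and liver, counted over probes seen on each of the 4 arrays of the pair, against the 61.8%, 33.5% and 65.6% given above.

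The remaining hair keratins were weak. Krt26 had levels of -3.48 and -3.20 in the liver, -4.03 and -3.98 in the ovary and -3.49 and -3.32 in the uterus. Krt28 had, by its brighter probe, -3.72 and -3.21, -3.24 and -3.08, and -2.96 and -2.76. For Krt73 the values were -2.90 and -2.56, -2.19 and -2.02, and -2.88 and -2.998, so that its ovary arrays were the highest. Krt36 was brightest in the uterus, with the brighter probe at -4.54 on the control liver array and not well above background on the BHPF one, at -3.80 and -3.83 in the ovary and at -2.81 and -2.38 in the uterus. The dimmer Krt36 probe was seen in the control ovary, at -6.10, and in the uterus, at -3.45 and -3.42. Krt86 was seen in the control ovary, at -5.32, and in the uterus, at -4.30 and -4.29, and Krt33a in the control ovary and control uterus only, at -5.78 and -4.28. Krt74 was seen in the control liver and control ovary only, at -5.47 and -6.19, and Krt88, which was put in none of the 3 classes, in the ovary only, at -4.995 and -4.90.

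On the control arrays alone, 19 keratin probes were at least 2-fold brighter in the uterus than in the liver and 1 was dimmer, against 23.0% and 15.9% of all probes. The brighter ones were 4 simple, 9 stratified and 6 hair keratins among 43 evaluated. Between uterus and ovary 21 keratin probes were brighter in the uterus and 3 dimmer, of 46, against 11.9% and 9.46% of all probes. Between ovary and liver 9 were brighter in the ovary and 8 dimmer, of 43, against 21.5% and 17.4%. The BHPF arrays, made from other mice, gave a second set of the same differences, in which the uterus array carries the hepatocyte signal given above. Of the 20 keratin probes that were 2-fold apart between control uterus and control liver 16 were so on the BHPF arrays in the same direction, the others being Krt33a, Krt79, Krt84 and Krt86. For uterus and ovary this held for 20 of 24, not for Krt33a and for 1 probe each of Krt2, Krt5 and Krt12. Krt33a in both comparisons with the uterus, and those probes of Krt2 and Krt5, were well above background on neither BHPF array compared. They were thus not evaluated there, and whether their differences repeat could not be seen. For ovary and liver it held for 16 of 17, not for 1 probe of Krt10.

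**Figure D3:**
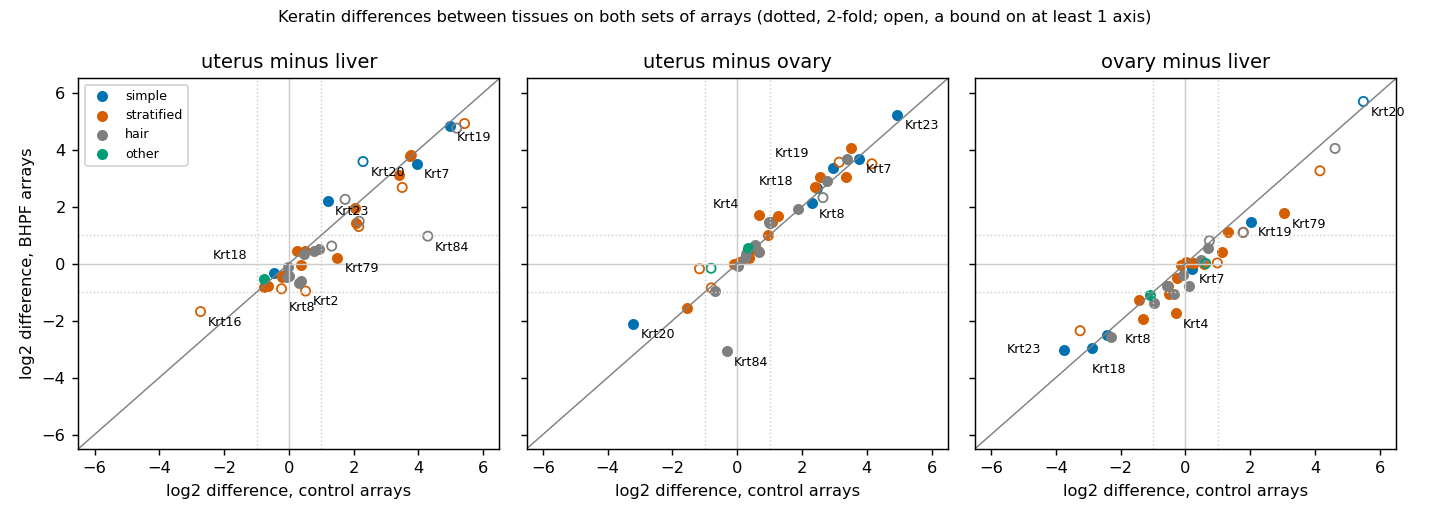
Log2 difference between 2 tissues on the control arrays (horizontal) and on the BHPF arrays (vertical) for each keratin probe evaluated on both, coloured by class, with dotted lines at 2-fold, the diagonal of equal values and open symbols where a value is a bound. Most probes lie near the diagonal, and Krt84 lies far below it in both panels that hold the uterus.

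Genes with more than 1 probe showed how far a keratin value depended on the probe. Of the 11 keratin genes with 2 probes, 7 had both probes above background on 1 array or more. In the other 4 genes the dimmer probe was not well above background on any array, and in 3 of these, Krt6b, Krt28 and Krt40, the brighter probe was so on all 6. In the fourth, Krt78, it was so on 5. Krt222 had a probe at 5.06 and 5.04 in the liver, 3.97 and 3.94 in the ovary and 4.30 and 4.50 in the uterus, while its other probe was well above background on the control ovary array only, at -5.61. The sequences of the probes were not used here, and whether a probe reads another transcript was not tested.

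No simple keratin was at least 2-fold higher or lower with BHPF in the liver, the ovary or the uterus, 0 of 6 in each. The shares of all probes called higher and lower were small too, at 6.02% and 1.07% in the liver, 0.681% and 0.593% in the ovary and 1.88% and 0.773% in the uterus, so that 0 of 6 is near the background. In the ovary their log2 ratios ran from -0.16 for Krt19, with an SD from spots of 0.124, to 0.13 for Krt23, with one of 0.209. In the liver they ran from -0.58 for Krt23 to 0.38 for Krt19, 1.30-fold higher, and Krt20 was at least 1.24-fold lower, being well above background on the control liver array only. In the uterus Krt7 and Krt8 were at -0.16 and -0.13, Krt18, Krt19 and Krt23 at 0.13, 0.24 and 0.42, and Krt20 at 0.98. Krt20, with a 1.97-fold higher level on the BHPF uterus array, was the simple keratin nearest to the threshold of 2-fold. The median log2 ratio of the simple keratins was 0.09 in the liver, where it turned to -0.23 with the 50th percentile as the scale, -0.07 in the ovary and 0.18 in the uterus, and over all probes evaluated it was 0.06, 0.00 and 0.01.

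In the liver 2 of 33 keratin probes evaluated were called higher with BHPF, by 2-fold or more, and 0 lower, against 6.02% and 1.07% of all probes. Krt79 was 2.32-fold higher, from -1.93 to -0.72, a call that was lost with the 50th percentile as the scale, where its log2 ratio was 0.90. The dimmer probe of Krt2, a keratin of the upper epidermis, was at least 2.86-fold higher, at -4.10 on the BHPF array and not well above background on the control array, and elsewhere it was so on the control uterus array only, at -5.11. That call was lost with normexp background correction, which left no fold. The other Krt2 probe, the brighter, was 1.31-fold higher. Just under the threshold were the hair keratins Krt40, at 1.99-fold, and Krt31, at 1.95-fold, which went from -4.40 to -3.41 and from -4.47 to -3.51. Of the 33 probes 26 had a log2 ratio above 0 and 5 below, with a median of 0.29, and of 36579 probes in all 21061 were above 0 and 13938 below. The liver ratios of all probes depended on the level, with a median of 0.44 at mean levels below -4, 0.23 from -4 to -2 and 0.02 above -2. The keratin medians were 0.39 over the 14 probes from -4 to -2 and 0.16 over the 13 above -2. The stratified median in the liver was 0.37 over 16 probes, and with the 50th percentile as the scale, which moved the median of all probes to -0.22, it was 0.061.

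In the ovary 0 of 42 keratin probes passed 2-fold upward with BHPF and 1 passed it downward, against 0.681% and 0.593% of all probes. The lower one was Krt4, from -3.90 to -4.90, which is 2.004-fold and lies at the threshold, and with normexp its log2 ratio was -0.66. Krt24 had the highest ratio of the ovary, 1.35-fold, from -3.45 to -3.02. Of the 36 keratin probes well above background on both ovary arrays 35 had a log2 ratio within 0.5 of 0, which is 97.2% against 94.6% of all such probes.

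In the uterus 0 of 42 keratin probes were 2-fold up with BHPF and 1 was 2-fold down, against 1.88% and 0.773% of all probes. The lower one was Krt84, a type II hair keratin, which was 6.11-fold lower, from -1.33 to -3.95, with an SD of the log2 ratio from spots of 0.139. Krt84 was at -1.004 and -0.87 on the ovary arrays and not well above background in the liver, so that the control uterus lay with the ovary arrays and the BHPF uterus below them. By the headings of the authors' table its log2 ratio was 2.61. None of the 21 stratified keratin probes evaluated was called. The highest ratio was that of Krt17, 1.56-fold higher, and those with high uterus levels, Krt42, Krt13, Krt15 and Krt24, were 1.16-fold, 1.15-fold for the brighter Krt13 probe, 1.15-fold and 1.08-fold higher. The median was 0.11 for stratified, 0.18 for simple and 0.01 for hair keratins.

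BHPF was also compared with control over the 3 tissues in the same limma fit, with tissue as a block, a test added after the values had been seen. Of the 26 keratin probes well above background on all 6 arrays 0 passed, as did 0.0% of 30537 such probes by the adjusted p (limma). Before adjustment 0 of the 26 had a p under 0.05 (limma), and the share of all probes under it was not counted. The labels do not say whether the tissues of a treatment came from the same mice, so the 3 differences may not be independent.

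**Figure D4:**
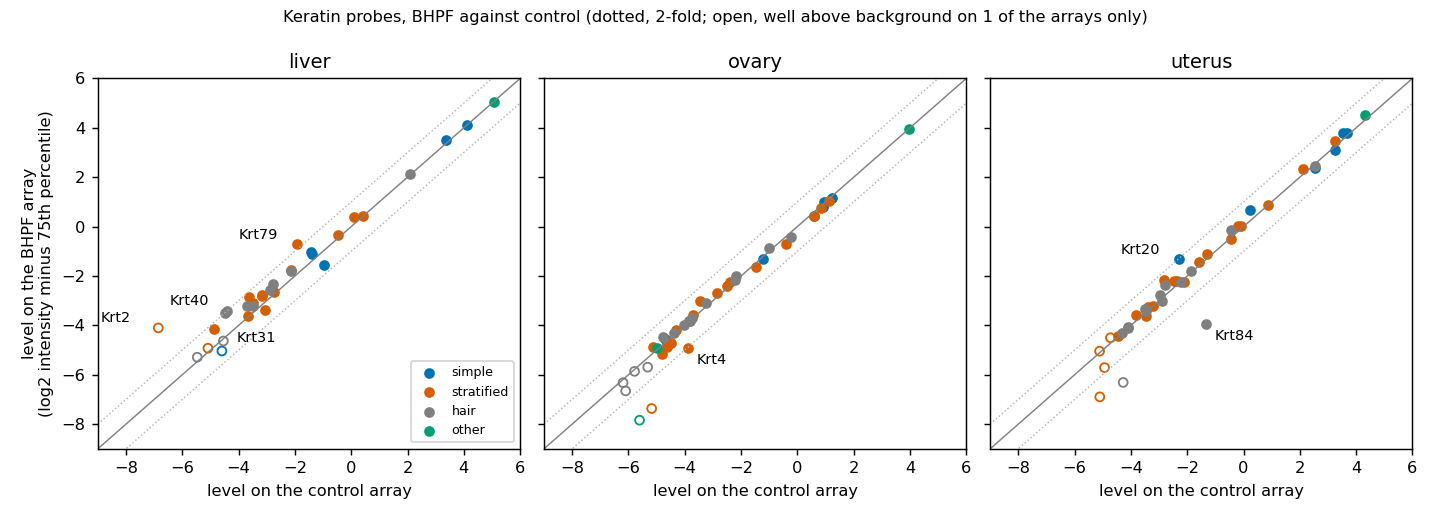
Level of each keratin probe on the BHPF array (vertical) against the control array (horizontal) of the same tissue, coloured by class, with the diagonal, dotted lines at 2-fold and open symbols for probes well above background on 1 of the arrays only. Named are Krt79, Krt2, Krt40 and Krt31 in the liver, Krt4 in the ovary, and Krt84 and Krt20 in the uterus. Of the filled symbols those of Krt79, Krt4 and Krt84 lie outside the dotted lines. All others lie between them, with Krt40, Krt31 and Krt20 just inside.

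The genes that work with keratins were read from lists of epithelial genes. Desmosomes and hemidesmosomes anchor keratin filaments to neighbouring cells and to the basement membrane. In the uterus none of 10 desmosome probes, 12 hemidesmosome probes and 26 probes of simple epithelium genes was 2-fold changed, with medians of 0.01, 0.00 and 0.04. Of all probes 1.88% were higher and 0.773% lower there, so that no call in lists of this size is near the background. Epcam, a surface protein of simple epithelium, was at 2.37 and 2.46 on the uterus arrays, and Cdh1, the epithelial cadherin, at 1.39 and 1.45. Of the other intermediate filament genes 1 of 19 probes was lower, a probe of the glial filament gene Gfap with a log2 ratio of -1.93 as a bound, and another Gfap probe had -0.18.

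Genes of squamous epithelium other than keratins were read in the uterus as well. Of 17 probes 4 were at least 2-fold lower with BHPF and 0 higher, against 0.773% and 1.88% of all probes, with a median of -0.18. Sprr1a, a precursor of the cornified envelope, went from 0.50 to -1.28, a log2 ratio of -1.78. 1 probe of Trp63, the transcription factor of basal cells, went from -3.24 to -4.52, a log2 ratio of -1.29, while the other was at 4.08 and 4.12. That other Trp63 probe was bright in every tissue, at 4.68 and 4.73 in the liver and 3.82 and 4.08 in the ovary. The first was not well above background in the liver. Sfn, a 14-3-3 protein of squamous cells, went from -1.49 to -2.51, and Serpinb5, a serpin of epithelial cells, was at -2.87 on the control array and not well above background on the BHPF array. Of 14 cornified envelope probes only that of Sprr1a was called. Of 16 probes of the uterine epithelium list 1 was called, that of the oestrogen-responsive gene Sprr2f, which went from 2.93 to 1.60. The median of that list was 0.07, with 11 probes above 0 and 5 below. Beside these, 0 of 21 stratified keratin probes were called, and the difference between the lists was not tested.

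The same lists were read in the other tissues. In the ovary none of the desmosome, hemidesmosome, cornified envelope, squamous or simple epithelium probes was called. Of 13 probes of the uterine epithelium list 2 were at least 2-fold lower there and 0 higher. The lower ones were Ltf, with a log2 ratio of -3.98, and Sprr2f, with -2.54. The shares of all probes there were 0.681% higher and 0.593% lower. In the liver 1 of 14 desmosome probes was at least 2-fold higher, Dsg1a, 1 of 10 squamous probes and 1 of 13 cornified envelope probes, both Sprr1a, 1 of 25 simple epithelium probes, Muc1, 1 of 17 probes of epithelial regulators, Gata3, and 1 of 15 probes of other intermediate filaments, Prph. The shares over all liver probes were 6.02% higher and 1.07% lower. Tchh, 1 of the 13 cornified envelope probes, was 2-fold lower. Of 10 uterine epithelium probes in the liver 1 was higher, Muc1, and 2 were lower. The lower ones were Ltf, with a log2 ratio of -4.18, and 1 probe of Foxa2, with -1.11, while the other Foxa2 probe had 0.35. The hemidesmosome list had no call in any tissue.

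**Figure D5:**
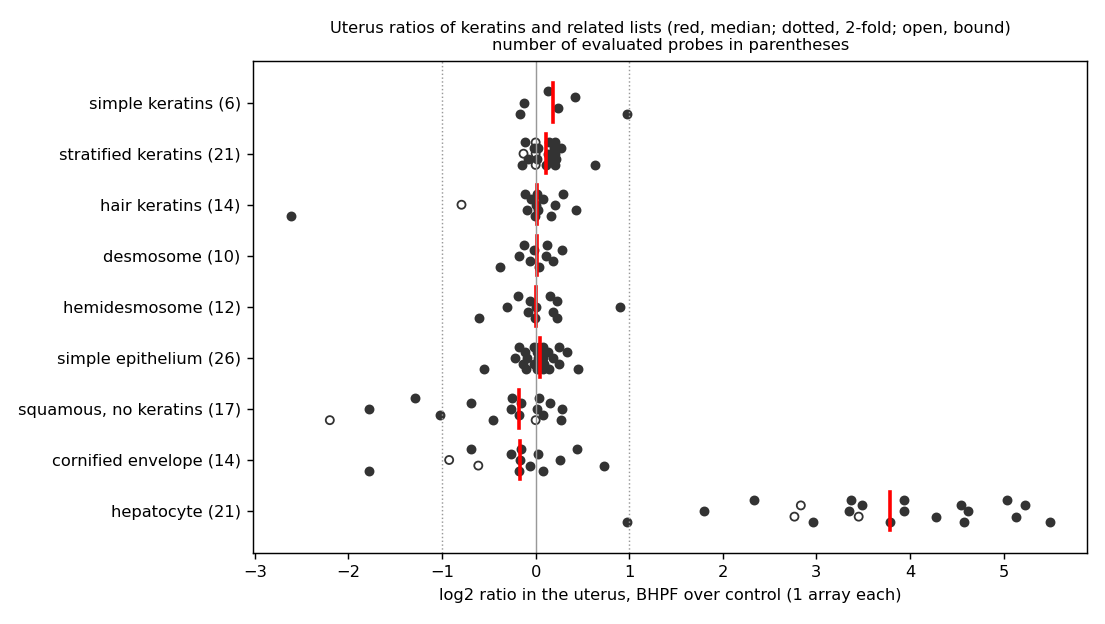
Log2 ratio of BHPF over control in the uterus for each evaluated probe of the keratin classes and of 6 gene lists, with the median in red, dotted lines at 2-fold and open symbols for bounds. The keratin classes other than Krt84 and the junction lists lie within 2-fold, the squamous list reaches down to -2.20, and 20 of the 21 hepatocyte probes lie above 2-fold.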

How the data were processed

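RNA of each tissue was hybridized to Agilent mouse gene expression arrays, 1 array for each of 6 groups. Scans were read by the authors in Agilent Feature Extraction (version 9.1 per the submitters' processing notes, 11.5.1.1 per the file headers) and deposited for each spot a processed linear intensity, corrected for background and spatial trend but not normalized between arrays, with the median intensity of the spot and of its background. Their deposited table of log2 values, from GeneSpring, was matched to each array's scanner values with a tolerance of 0.001. Its control and BHPF uterus columns hold each other's array (99.8% of probes matched, against 0.340% and 0.351% as headed), so the scanner files were used under the labels they were deposited with, and the table served as an alternative. Control and BHPF arrays held different positions on 1 slide, so position and treatment cannot be told apart.

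Control spots and outlier spots were left out, the spots of each probe were averaged as log2 intensities, and the array's 75th percentile, taken over every probe, was set to 0. A probe was evaluated where 1 or both of the compared arrays had it well above background, and called at 2-fold. Where it was so on 1 array only, the other array's lowest level well above background, or the probe's own level there if higher, gave a bound. Symbols came from the transcript accession through a RefSeq table. Tissue differences were fitted with limma 3.58.1 in R 4.3.3 with trend over 43892 probes, whether or not each was well above background on all arrays, and the test was checked on simulated data. The treatment term of that fit gave BHPF against control with tissue as a block. Counts of passes were taken over probes well above background on each array of the tissues compared, with p adjusted over the whole fit. Scripts ran in python 3.11.15 with numpy 2.4.6, pandas 2.3.3 and matplotlib 3.10.9.

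Every keratin probe that passed background on 1 or more arrays was described, with all levels for simple and stratified keratins called in a tissue or seen on all 6 arrays and for others chosen after their values were seen, and of each list the members called in the uterus were named, at most 4. The keratin classes, the gene lists and the members were chosen with earlier results of these data known. Alternatives were the background correction (normexp with an offset of 50), the scaling (the 50th percentile, that of the 75th percentile restricted to probes seen on all arrays, and quantile normalization), the authors' table, the filter and bound for dim probes, the mean of a gene's probes, outlier spots and a threshold of 4-fold. The number of arrays limits the precision.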

Additional observations from a re-analysis of the deposited data

Results flagged for a closer look

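For 3 keratins well above background on all 6 arrays the log2 ratio of BHPF over control had opposite signs in 2 tissues, each larger than 2 times the SD that spots give, and with 1 array a group the difference was not tested. That SD leaves out the spread between pools, and how many of all probes meet this rule was not counted. Krt23 was at -0.58 in the liver and 0.42 in the uterus. By the headings of the deposited table its uterus value was -0.42, so that the signs no longer differed. Those headings also reverse the direction that the paper gives for Sprr2f in the uterus. The brighter probe of Krt13 was at 0.28 in the liver and -0.29 in the ovary, and with the 50th percentile as the scale the liver value was -0.032, so that the signs no longer differed. Krt4 was at 0.43 in the liver and -1.003 in the ovary, and its liver value fell within 2 SDs of 0 with the 50th percentile, at 0.12, and with quantile normalization, at 0.14. Its liver value also lay between the quartiles of all liver probes at mean levels from -4 to -2, which were -0.07 and 0.52.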

How the results depend on the processing

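Each group has 1 array, so that no replicate numbers pair samples and no array could be left out. With tissue as a block over the 6 arrays, 0 of 26 keratin probes passed for BHPF, against 0.0% of 30537 probes (limma). Over 12 settings 110 of the counts stayed within 1.5 times and 34 moved, and 62 of the medians stayed within the noise of spots and 5 moved. Over 10 settings 482 of the log2 ratios of single probes stayed, 65 moved and 1 turned. With the authors' table as headed, Krt84 in the uterus came to 2.61, the uterus had 1 keratin higher and 0 lower, and the simple and stratified medians there were -0.18 and -0.11, since those columns hold each other's arrays. Otherwise the Krt84 ratio ran from -2.69 to -1.91.

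For probes higher with BHPF in the liver, the count of 2 became 0 at 4-fold, 1 with the 50th percentile, the mean of a gene's probes, normexp or probes well above background on both arrays, and 11 with no filter. The dimmer Krt2 probe had no fold with normexp (0.00). For lower in the liver it became 1 with outlier spots kept. The 50th percentile moved the simple and stratified medians of the liver to -0.23 and 0.061, and quantile normalization the stratified one to 0.14. For lower in the ovary the count of 1 became 0 at 4-fold or with normexp, where Krt4 came to -0.66, and 3 with no filter or own values in place of bounds. In the uterus 2 were higher with no filter and 3 lower with own values.

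Between tissues, the 19 probes brighter in uterus than in liver became 11 with either reading of the authors' table or with probes well above background on both arrays, and the 1 dimmer probe became 0 with these, 5 with the 50th percentile, 3 with no filter or quantile normalization and 2 with outlier spots kept. The 3 probes dimmer in uterus than in ovary became 1 at 4-fold and 5 with no filter or own values. The 9 probes brighter in ovary than in liver became 5 at 4-fold, with either reading of the table or with both arrays required, and 14 with own values, and the 8 dimmer became 5 at 4-fold. The cause of these shifts was not tested.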
